A study of Mus musculus with 4 samples.

Results

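Lewis lung carcinoma (LLC) tumour cells floating in malignant pleural effusion were picked out of single-cell RNA profiles of pleural fluid by their own transcripts. A barcode was kept with at least 5000 unique molecular identifiers (UMIs, each marking 1 captured RNA molecule), at least 200 genes and at most 10% of UMIs from mitochondrially encoded genes. A kept barcode was called a tumour cell with at least 2 UMIs of Cald1, at least 1 of Hmga2 and under 20 Lyz2 UMIs per 10000. The rule found 70 of 9546 kept cells, or 0.733% (95% Clopper-Pearson interval 0.572 to 0.926%). C57BL/6 mice bearing LLC effusions received, into the pleural cavity on day 11, PBS, 1 µg LNP-cGAMP, 30 µg of an anti-PD-L1 antibody (clone 10F.9G2) or both agents at these doses. In LNP-cGAMP, nanoparticles carry the STING agonist cGAMP, and the antibody keeps PD-L1 from restraining T cells. The fluid was drawn 48 h after treatment, on day 13, its red cells were lysed, and cells of 3 mice were pooled into 1 library per treatment with 4000 cells loaded. The age of the mice was not given in the sources used here. Each group was therefore 1 library without a replicate, no test was run, and every interval below covers counting error only.

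LLC is a transplantable carcinoma line that arose in the lung of a C57BL mouse, and it seeds the pleural space and draws fluid into it. Effusion tumour cells float without a stroma and shape the fluid through secreted factors that attract myeloid cells, raise vessel permeability and feed growth receptors. Cald1 encodes caldesmon, an actin-binding regulator of contractility that leukocytes use little, and Hmga2 an embryonic chromatin protein that many carcinomas switch back on. Lyz2, lysozyme, marks phagocytes. When STING or interferon receptors are engaged, a cell raises antiviral genes and the machinery that shows peptides on MHC class I.

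The libraries held between 68828158 and 88855120 UMIs over all barcodes, and between 1996 and 2798 barcodes of each reached 5000 UMIs. Tumour cells were 27 of 1836 kept cells in the PBS library (1.47%, interval 0.971 to 2.13%) and 22 of 2353 with anti-PD-L1 (0.935%, 0.587 to 1.41%). They were 19 of 2727 with both agents, called the combination here (0.697%, 0.420 to 1.09%), and 2 of 2630 with LNP-cGAMP alone (0.0760%, 0.00921 to 0.274%). The PBS share was the highest and the LNP-cGAMP share the lowest of the 4, and with 1 pool each a treatment cannot be told apart from its pool. Of the kept barcodes 9 occurred in 2 libraries, 1 of them a tumour cell, and no barcode was a tumour cell in both.

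Tumour cells were large by RNA content. Their UMI totals ran from 6060 to 254736 with a median of 85312.5, against a median of 23607.5 in the 9476 other kept cells, and they held a median of 7746.5 against 4596 genes. Thinned to 5000 UMIs per cell, the medians were 1977 and 1960 genes in the same order. They supplied 2.32% of all UMIs in kept cells, 6512514 in total. Mitochondrially encoded genes took a median of 5.10% of their UMIs against 2.71%. In 9 tumour cells that share was under 1% (2 from PBS, 6 from anti-PD-L1, 1 from LNP-cGAMP and 0 from the combination), and a limit of 5% in place of 10% would have left 33 of the 70.

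The values that chose the cells are given only as a description. Of 171 kept cells with at least 2 Cald1 UMIs, 75 had Hmga2, and 5 of those failed on Lyz2 alone. Cald1 ran from 4 to 370 UMIs in the 70 cells (median 70) and Hmga2 from 1 to 227 (median 43), with 5 cells at the minimum of 1. Just inside the Lyz2 limit stood cells with 12.1, 11.9 and 3.75 UMIs per 10000, and just outside it the 5 excluded cells with 29.1 to 121 Lyz2 per 10000 and no more than 1 Hmga2 UMI. A further 36 cells lacked Hmga2 but met the other limits. Of these, the 31 with under 5 UMIs of the leukocyte gene Ptprc serve below as a comparison, called the Cald1-positive cells without Hmga2.

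The label held for most of the 70 cells and not for all. In 7 of them (1 in PBS, 1 in anti-PD-L1, 5 in the combination) Col1a1, a fibrillar collagen chain, had 38 to 275 UMIs (median 103), whereas the other 63 held 0 or 1. These 7 had a median of 3 Hmga2 UMIs against 52 in the other 63. Given in the order 7 Col1a1-high cells, other 63 tumour cells, Cald1-positive cells without Hmga2, the level in CPM (a gene's UMIs per 1000000 UMIs summed over the cells) was 2495, 0 and 2299.9 for Col1a2. For the mesothelial marker Nkain4 it was 524, 0 and 581. For Wt1, a mesothelial transcription factor, it was 198, 0.333 and 219.8. Hmga2, which the rule used, was at 108 CPM in the 7 and 674 in the other 63, and the last group lacks it by its definition.

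Rhox5, an X-linked homeobox gene of the reproductive tract, split the same cells the other way. It had UMIs in 63 of the other 63 tumour cells and in 1 of the 7, with 2.00, 664 and 16.9 CPM in that order. Areg, which encodes the growth factor amphiregulin, stood at 0, 344 and 0.995 CPM. By Col1a2, Nkain4, Wt1, Rhox5 and Areg the 7 Col1a1-high cells lay with the mesothelial and fibroblast-like remainder and not with the other 63, which goes against their label. These 5 genes were chosen after their values were seen, and other markers did not split the cells so. The mesothelial marker Msln reached 36 UMIs in a Col1a1-high cell and 55 in another tumour cell. The fibroblast markers Col3a1 and Dcn were expressed in the other 63 too, as given below. The 7 Col1a1-high cells were split off after the values had been seen, and counts of genes and gene lists between libraries are given with and without them. The reverse also occurred: 3 of the 31 Cald1-positive cells without Hmga2 carried Rhox5, 34 UMIs in all.

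**Figure D1:**
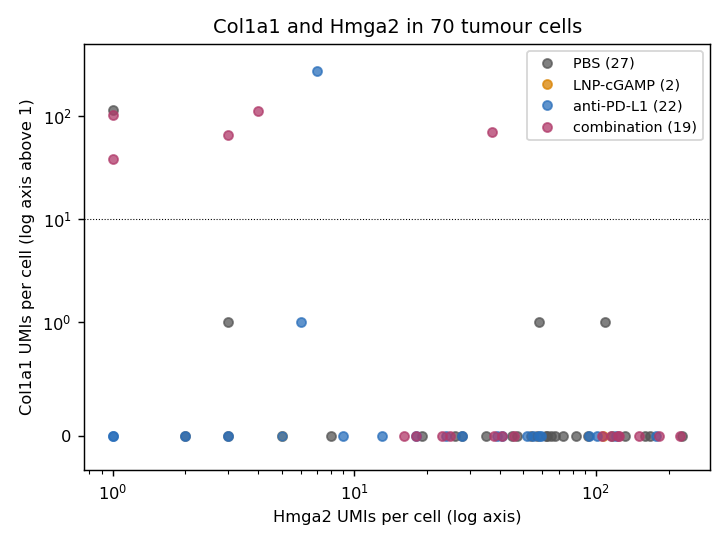
UMIs of Col1a1 and of Hmga2 in each of the 70 cells that met the rule, on log axes, with 1 point per cell and colours for the 4 libraries. The 7 cells with 38 to 275 Col1a1 UMIs stand apart from the other 63, which hold 0 or 1.

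Markers of leukocytes and their kinds were low, while those of mesothelial, fibroblast and smooth muscle cells were above the other kept cells. All 6 leukocyte genes were at least 4-fold lower than in the other kept cells, Ptprc at 13.4 against 292 CPM, and so were the 8 monocyte and macrophage genes listed beside Lyz2, whose limit is part of the rule. These 8 summed to 642 against 12557 CPM. Summed over each list, T cell markers came to 1.69 against 145 CPM, NK cell markers to 1.23 against 184 and B cell markers to 0.307 against 14.7, with Ncr1, Klrb1c and Klre1 at 0. In 5 tumour cells (1 in PBS, 1 in anti-PD-L1, 3 in the combination) Ptprc nevertheless had at least 5 UMIs; their median total was 189483 UMIs and 1 of them was also Col1a1-high. The 7 mesothelial genes detected summed to 203 CPM over all 70, against 4705 in the Cald1-positive cells without Hmga2, and Muc16 was at 0. Of the epithelial markers, the keratins Krt8 and Krt18 were found, while Epcam, Cdh1, Cldn4, Sftpc and Scgb1a1 were at 0. Near-empty barcodes of 10 to 100 UMIs gave the RNA free in the fluid. The Lyz2 level of tumour cells was between 0.366% (LNP-cGAMP, on 1 Lyz2 UMI) and 5.58% (combination) of it. Since the rule limits Lyz2, this low share was partly fixed by the choice of cells and cannot gauge free RNA. For genes that the rule did not use the share varied. It was 2.06% (LNP-cGAMP) to 10.0% (anti-PD-L1) for C1qa and 0.977% (PBS) to 2.11% (anti-PD-L1) for S100a9. The part of such RNA, and of doublets, in the leukocyte transcripts was not tested.

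Sex-linked transcripts separated tumour cells from their hosts in the PBS and LNP-cGAMP libraries. Xist, the noncoding RNA that silences an X chromosome (chrX:103460366-103483254, minus strand, GRCm38), had UMIs in 22 of 27 PBS tumour cells (81.5%; median 25, highest 99 UMIs) and in both LNP-cGAMP tumour cells. In the other kept cells it was found in 6 of 1809 (0.332%) and 2 of 2628 (0.0761%), at median depths of 32826 and 20710.5 UMIs against 87987 and 65728.5 in the tumour cells. The 4 Y-linked genes (Ddx3y, Eif2s3y, Kdm5d, Uty) gave the opposite picture, with a UMI in 88.6% and 89.4% of the other cells. In PBS tumour cells they summed to 5.48 CPM against 116, with 15 UMIs (5 of these in the Col1a1-high cell) spread over 11 cells, and in LNP-cGAMP tumour cells to 0, which allows up to 22.8 CPM. In these 2 pools, whose other cells carried Y-linked transcripts and almost no Xist, the tumour cells carried Xist and little or no Y-linked RNA.

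In the anti-PD-L1 and combination pools both kinds of host cell were present, so the contrast could not be read in the same way. Xist had UMIs in 16 of 22 and 13 of 19 tumour cells and in 65.1% and 63.7% of the other cells. Y-linked RNA was at 0 in the anti-PD-L1 tumour cells, which allows up to 1.67 CPM, against a UMI in 32.1% of the other cells. In the combination, Y-linked genes had UMIs in 3 of 19 tumour cells and 20.9% of other cells. Of those 9 UMIs, 8 lay in 2 Col1a1-high cells, and without the Col1a1-high cells it was 1 of 14 cells and 0.689 in place of 4.86 CPM. Over the 4 libraries 53 tumour cells carried Xist, 14 Y-linked UMIs, 10 both and 13 neither. The Cald1-positive cells without Hmga2 looked like host cells on this measure: in PBS and in LNP-cGAMP 0 of 8 had Xist and 7 of 8 had Y-linked UMIs.

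**Figure D2:**
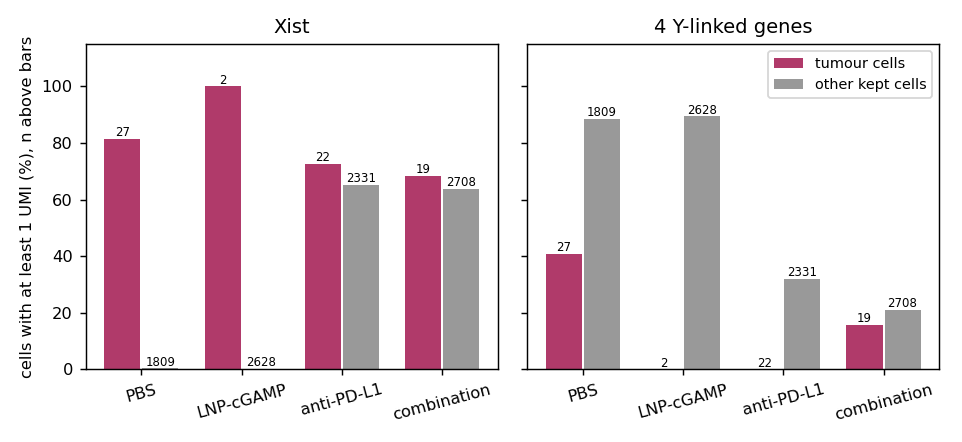
Share of cells (%) with at least 1 UMI of Xist or of any of the 4 Y-linked genes, per library, for tumour cells and other kept cells, with cell numbers over the bars. In PBS and LNP-cGAMP tumour cells carry Xist (22 of 27 and 2 of 2) where other cells nearly all lack it.

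Against the other kept cells, the tumour cells had a mesenchymal, contractile and secretory profile. Of 3833 genes compared (at least 20 UMIs, and 50 CPM on either side), 224 were at least 4-fold higher (5.84%) and 441 at least 4-fold lower (11.5%), on log2 of (CPM + 10) ratios. Because the cells were chosen on their own transcripts, these counts are a description. Of the 224, 47 were also at least 4-fold above the Cald1-positive cells without Hmga2; in that stricter comparison 61 of 3779 genes were higher (1.61%) and 361 lower (9.55%). Scaling by trimmed means moved all log2 ratios by 0.45 and left 163 genes higher and 585 lower. Rhox5 (chrX:37804842-37808876, GRCm38) had the highest ratio after Cald1 and Hmga2, which chose the cells. Its level was 651 CPM with PBS, 712 with the antibody, 730.3 with LNP-cGAMP and 453 with both, and per cell 0, 678 and 1980.2 CPM (lowest, median, highest), with UMIs in 64 of 70 tumour cells and 113 of 9476 others. That made 613 against 0.568 CPM, 1079-fold (95% interval 919.5 to 1275) higher. In the other kept cells it was nearly absent in every library, and in tumour cells the combination was lowest. Without the Col1a1-high cells the per-cell median was still lowest there. It was 442 CPM, against 693 with PBS, 763 with the antibody and 1325 in the 2 cells of LNP-cGAMP.

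Amphiregulin, an epidermal growth factor receptor ligand, came next among the genes hardly used by other cells. Areg stood at 179 CPM with PBS, 285 with the antibody, 243 with LNP-cGAMP and 559 with both, with 0, 117 and 3959 CPM per cell and UMIs in 52 of 70 against 61 of 9476. The pooled level was 980.2-fold (95% interval 793 to 1226) higher, yet single tumour cells ranged from none to a very high level. Igfbp4, which binds insulin-like growth factors, was found in all 70 at 958 against 19.3 CPM, 49.7-fold (95% interval 47.9 to 51.6) higher. Other signalling and secreted products followed: Prkg2, a cGMP-dependent kinase, at 197 against 0.167, Rbp4, the retinol carrier, at 197 against 0.229, and Ptges, which makes prostaglandin E2, at 265 against 4.30 CPM. Serpinf1, an anti-angiogenic serpin, was at 189 against 0.477 and Htra1, a secreted protease, at 218 against 1.43 CPM. All of these stayed higher than in the Cald1-positive cells without Hmga2. There Rhox5 was at 16.9, Areg at 0.995, Prkg2 at 17.4, Rbp4 at 6.96 and Serpinf1 at 19.4 CPM. The margin was smaller for Igfbp4, Htra1 and Ptges, at 503, 103 and 80.6 CPM in those cells (log2 ratios 0.92, 1.01 and 1.60).

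**Figure D3:**
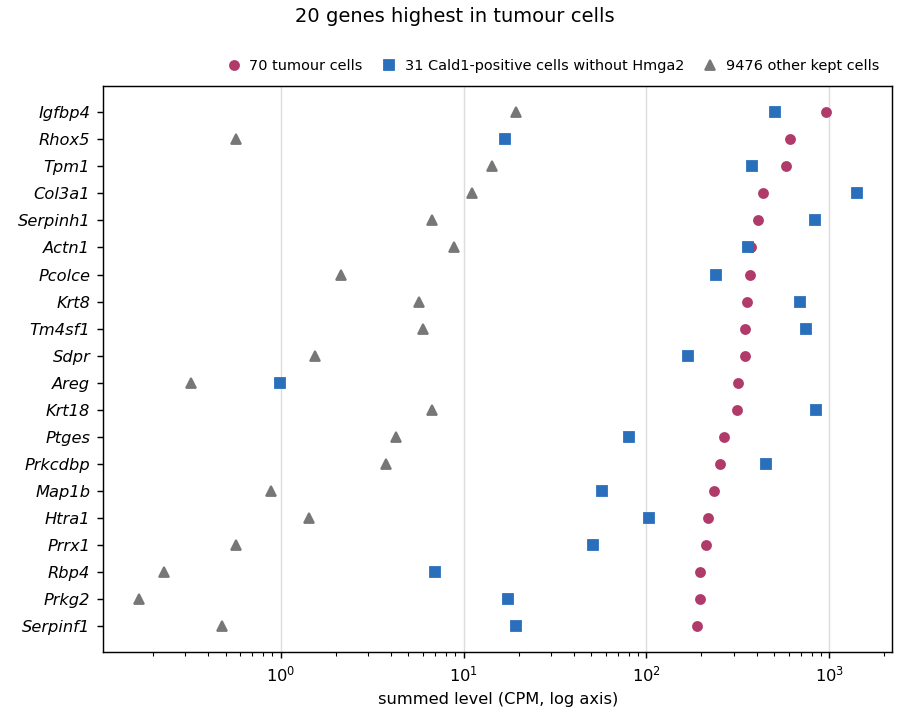
Level (CPM, log axis) of the 20 genes with the highest ratio in tumour cells, 1 row per gene, with points for tumour cells, other kept cells and Cald1-positive cells without Hmga2. Rhox5, Areg, Prkg2 and Rbp4 are low in both references, whereas Krt8, Krt18, Tm4sf1, Serpinh1, Col3a1 and Prkcdbp are highest in the Cald1-positive cells without Hmga2.

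Several genes of the actin cytoskeleton were at least 4-fold higher than in the other kept cells, and none was against the Cald1-positive cells without Hmga2. Of 24 compared with other kept cells, 9 were at least 4-fold higher and 0 at least 4-fold lower in tumour cells, with a median log2 ratio of 1.43, beside a median of 0.12 over all genes. Tpm1, a tropomyosin that stiffens actin filaments, was at 579 against 14.3 CPM and present in all 70 cells. Actn1, the actin cross-linker alpha-actinin, was at 373 against 8.87, Tpm2 at 169.8 against 1.86 and the nuclear lamin Lmna at 1039 against 163 CPM. Caveola coats were represented by Sdpr (344 against 1.54) and Prkcdbp (251 against 3.79). Against the Cald1-positive cells without Hmga2, 0 of 26 were at least 4-fold higher and 1 was lower, and those cells held 361 CPM of Actn1 and 453 of Prkcdbp. Acta2, smooth muscle actin, was uneven: 37 of 70 cells had it, at 0, 7.86 and 6097 CPM per cell, and its pooled level was 209 CPM with PBS, 125 with the antibody, 0 with LNP-cGAMP and 27.6 with both.

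The cells paired simple-epithelium keratins with mesenchymal regulators. Krt8 had UMIs in 62 and Krt18 in 63 of 70 cells, at 356 against 5.71 and 314 against 6.69 CPM, while the epithelial genes Epcam, Cdh1, Cldn4, Cldn7 and Esrp1 were at 0. Prrx1, a mesenchymal transcription factor, was in 68 of 70 cells at 212 against 0.568 CPM, and Twist1 in 65 at 92.4 against 0.513. Vim, the mesenchymal intermediate filament, was at 4292 against 2333 CPM. Zeb2, another such regulator that macrophages also use, was lower, at 59.0 against 397. In the whole list of 9 compared genes, 4 were at least 4-fold higher and 1 at least 4-fold lower in tumour cells, with a median log2 ratio of 0.89. Krt8 and Krt18 did not set tumour cells apart from the Cald1-positive cells without Hmga2, which held 688 and 850.3 CPM (log2 ratios -0.93 and -1.41). Prrx1 was higher than in them, at 212 against 51.2 CPM (log2 ratio 1.86), but fell short of the 4-fold call.

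Matrix genes were high against leukocytes but low against the mesothelial and fibroblast-like cells. Of 18 compared with other kept cells, 13 were at least 4-fold higher and 1 at least 4-fold lower in tumour cells, with a median log2 ratio of 3.01. These counts and those that follow cover all 70 cells, the 7 Col1a1-high ones included. Against the Cald1-positive cells without Hmga2 26 were compared, 1 was higher and 9 were lower, with a median of -1.04. Col3a1, a fibrillar collagen of loose tissue, had UMIs in 57 of 70 cells and Dcn, the collagen-binding proteoglycan decorin, in 57. Without the 7 Col1a1-high cells they were at 294 and 523 CPM, with 0, 111 and 8536 CPM per cell for Col3a1. So the other 63 tumour cells expressed Col3a1 and Dcn but hardly Col1a1 (0.665 CPM) or Col1a2 (0). Pcolce, which speeds the trimming of procollagen, was at 367 against 2.15 and 241 CPM in tumour, other and Cald1-positive cells without Hmga2, and Serpinh1, the collagen chaperone, at 409 against 6.69 and 835. Thbs1, the matrix protein thrombospondin, was lower than in other cells, at 11.2 against 236 CPM.

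Some matrix genes were carried by few tumour cells. Mmp3, the protease stromelysin, had UMIs in 10 of 70, up to 512 in 1 cell, and 763 of its 888 UMIs were in PBS. Lum, the proteoglycan lumican, was in 19 cells at up to 585 CPM. H19, an imprinted oncofetal RNA, was in 6 cells, and 162 of its 217 UMIs came from 1. The pooled CPM of these genes therefore speaks for a minority of cells.

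Oncofetal and growth-regulating genes stood out next. Of 11 compared, 5 were at least 4-fold higher and 0 at least 4-fold lower in tumour cells, with a median log2 ratio of 1.62. Myc, the growth transcription factor (chr15:61985391-61990374, GRCm38), had 0, 182 and 8238 CPM per cell and was present in 64 of 70; pooled it was at 523 against 26.6 and 58.7 CPM in tumour, other and Cald1-positive cells without Hmga2. Hmga1, the chromatin protein related to Hmga2, was at 294 against 22.1 and 61.2 CPM in the same order and Igf2bp2, an oncofetal RNA-binding protein, at 97.4 against 6.83 and 22.4. Pvt1, the noncoding neighbour of Myc, was at 134 against 3.59 and 7.96. Sox4 was at 186 against 1.87 and 193, near the last group. Cdkn2a, the cell cycle brake, had 3 UMIs, all in Col1a1-high cells.

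Cell cycle genes were higher than in the effusion as a whole. For S phase, 16 genes were compared and 0 were at least 4-fold higher and 0 at least 4-fold lower in tumour cells, with a median log2 ratio of 1.08; for G2 and M phase, 21 were compared and 3 were at least 4-fold higher and 0 at least 4-fold lower in tumour cells, with a median log2 ratio of 1.58. Cdc20, which triggers anaphase, was at 189.6 against 16.7 CPM and the kinetochore protein Cenpf at 152 against 20.1. With each cell thinned to 5000 UMIs, 47 of 70 tumour cells (67.1%) held at least 5 UMIs of the S phase list and 51 (72.9%) of the G2 and M list, against 12.2% and 15.7% of other kept cells. In T cells, taken as cells with at least 2 UMIs over the Cd3 genes, the shares were 58.2% and 65.4%, and in phagocytes 10.6% and 13.2%. Against T cells alone the list medians turned to -0.66 and -0.44, below T cells and above the effusion as a whole.

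Growth metabolism was higher in part. Ribosome and translation genes were compared for 14 members: 4 were at least 4-fold higher and 0 at least 4-fold lower in tumour cells, with a median log2 ratio of 1.19. Npm1 and Ncl, nucleolar proteins of ribosome assembly, were at 2308 against 439.9 and 1496 against 260.4 CPM, and Odc1, the first enzyme of polyamine synthesis, at 982 against 102. Of 21 glycolysis and hypoxia genes, 2 were at least 4-fold higher and 1 at least 4-fold lower in tumour cells, with a median log2 ratio of 0.54. Ldha, lactate dehydrogenase, was at 2017 against 963 CPM, and the hypoxia-responsive peptide Adm and prolyl hydroxylase Egln3 were at 71.2 against 0.277 and 82.2 against 2.79, whereas the lactate exporter Slc16a3 was lower at 16.1 against 218. Of 18 stress genes, 2 were at least 4-fold higher and 1 at least 4-fold lower in tumour cells, with a median log2 ratio of 0.67. Asns, asparagine synthetase, was at 165 against 4.08 and Hspd1, a mitochondrial chaperone, at 789 against 131, while Hmox1, the haem-degrading enzyme of macrophages, was lower at 232 against 2672 CPM. Housekeeping genes had a median of 0.04.

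Secreted signals made up a further group. Of 18 compared, 10 were at least 4-fold higher and 2 at least 4-fold lower in tumour cells, with a median log2 ratio of 2.49. The epidermal growth factor receptor ligands were represented by Areg, by Hbegf at 80.5 against 0.681 and 3.98 CPM (tumour, other, Cald1-positive without Hmga2) and by Ereg at 54.7 against 0.0764 and 4.48. Spp1, osteopontin, a matrix cytokine linked to macrophages, was at 2132 CPM with PBS, 730.5 with the antibody, 578 with LNP-cGAMP and 990.5 with both, and in 65 of 70 cells, with 0, 587 and 11664 CPM per cell. Mif, a macrophage-retaining cytokine, was at 1636 against 487. Cxcl1, a neutrophil attractant, was in 44 cells at 178 against 3.94, and the alarmin Il33 in 45 at 104 against 1.14. Csf1, the macrophage growth factor, was in 58 cells at 62.5 against 3.36 CPM, and Ptgs2, which feeds prostaglandin synthesis, was at 120.2 against 2.13.

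Ccl2, the main monocyte attractant of such effusions, was found in 68 of 70 tumour cells but was not higher than in the rest of the fluid, at 593 against 1019.7 CPM. It had 0, 226 and 7246 CPM per cell (lowest, median, highest) and was at 485 CPM with PBS, 708 with the antibody, 898 with LNP-cGAMP and 621 with both. Vegfa, which raises vessel permeability, had UMIs in 48 cells at 42.5 against 2.71 CPM, under the level at which genes were compared, and Il11 in 26 cells at 22.7 against 0.0510. The chemokines Ccl7 and Ccl5 were lower than in other cells, at 118 against 949 and 36.4 against 410.4 CPM.

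The genes with the lowest ratios were leukocyte genes. In CPM, tumour against other cells, the chemokine Ccl12 was at 14.3 against 659, the surface antigen Ly6c2 at 10.9 against 562 and the chitinase-like Chil3 at 27.0 against 987. The lymphoid and myeloid antigen Cd52 was at 62.6 against 1612, the Fc receptor Fcgr1 at 22.7 against 651 and the protease Ctss at 126 against 2738. The membrane proteins Ms4a6c, Ms4a6d, Ms4a6b and Ms4a8a were at 34.9, 33.6, 21.7 and 27.0 CPM against 952, 839, 604 and 698. Most were higher in phagocytes than in T cells, but Ly6c2 was at 454 CPM in phagocytes and 915 in T cells, and Cd52 at 1573 and 2209. The Lyz2 limit of the rule bears on genes of phagocytes.

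Antigen presentation and interferon lists had medians below 0 against the other cells of the fluid. Of 20 MHC class I genes compared, 0 were at least 4-fold higher and 3 at least 4-fold lower in tumour cells, with a median log2 ratio of -1.12, where 11.5% of all genes were at least 4-fold lower. H2-K1 and H2-D1, class I heavy chains, were at 893 against 3117 and 2079.7 against 3897 CPM, and B2m, their light chain, at 1336 against 3013; heavy chain genes are close copies, and counting may have split their reads. Of 7 MHC class II genes, 0 were at least 4-fold higher and 7 at least 4-fold lower in tumour cells, with a median log2 ratio of -2.85. For type I interferon responses 25 genes were compared and 0 were at least 4-fold higher and 5 at least 4-fold lower in tumour cells, with a median log2 ratio of -1.47, and for interferon gamma responses 17 and 0 were at least 4-fold higher and 4 at least 4-fold lower in tumour cells, with a median log2 ratio of -1.28. Bst2, which tethers virus particles, was an exception at 474 against 501 CPM. Tmem173, which encodes STING, was at 49.8 against 104 and Mb21d1, which encodes the sensor cGAS, at 1.07 against 13.4 CPM, and Ifnb1 was at 0. Cd274, which encodes PD-L1, was at 24.4 against 150.3 CPM, lower in the tumour cells than in the cells around them.

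Interferon-stimulated genes differed between the libraries, so the promoters of 4 of them are shown here. The sequences are the 250 bases before the transcription start, from RefSeq on GRCm38.p6, and capitals mark matches to GAAA, any 2 bases, then GAAA, on either strand, the core that interferon-activated factors recognise. They are Isg15 (chr4:156200819-156201068, minus strand; 3 overlapping matches), Gbp2 (chr3:142620413-142620662, plus strand; match on the opposite strand), B2m (chr2:122147437-122147686, plus strand) and Cxcl10 (chr5:92348890-92349139, minus strand).
Isg15 promoter: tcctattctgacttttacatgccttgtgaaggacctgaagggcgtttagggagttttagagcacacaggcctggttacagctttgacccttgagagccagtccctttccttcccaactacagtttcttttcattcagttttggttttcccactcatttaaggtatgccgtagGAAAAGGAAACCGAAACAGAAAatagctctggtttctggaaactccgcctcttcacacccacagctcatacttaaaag
Gbp2 promoter: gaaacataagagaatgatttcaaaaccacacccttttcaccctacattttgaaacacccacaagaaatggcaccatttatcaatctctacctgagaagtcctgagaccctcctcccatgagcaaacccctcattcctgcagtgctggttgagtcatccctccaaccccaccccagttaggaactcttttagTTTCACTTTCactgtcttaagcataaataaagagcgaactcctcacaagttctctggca
B2m promoter: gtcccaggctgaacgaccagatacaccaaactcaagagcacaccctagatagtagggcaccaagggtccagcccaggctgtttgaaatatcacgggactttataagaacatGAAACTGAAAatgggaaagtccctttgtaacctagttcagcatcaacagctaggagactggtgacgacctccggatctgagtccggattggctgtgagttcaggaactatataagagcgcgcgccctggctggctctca
Cxcl10 promoter: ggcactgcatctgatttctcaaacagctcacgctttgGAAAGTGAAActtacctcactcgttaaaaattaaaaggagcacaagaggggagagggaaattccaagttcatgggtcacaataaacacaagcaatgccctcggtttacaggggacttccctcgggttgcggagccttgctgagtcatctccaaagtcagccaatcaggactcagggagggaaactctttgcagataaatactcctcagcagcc
The motif occurred in 978 of 32851 windows (2.98%) and in 936 of 27025 genes (3.46%). Among listed genes with a sequence it occurred in 10 of 24 type I interferon, 12 of 20 interferon gamma and 3 of 19 MHC class I genes. H2-K1, H2-D1, Irf7 and Psmb9 held none in this window, which says only that these letters are not there.

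Between libraries, tumour cells could be compared for PBS, anti-PD-L1 and the combination. The comparisons share libraries, so they are not independent of one another. The pools also differed in their host cells. Xist had UMIs in 65.1% of other kept cells with anti-PD-L1 and 63.7% in the combination, against 0.332% in PBS. Host sex by this measure cannot be told apart from treatment in the comparisons with PBS, and its part was not tested. Over all 70 cells, anti-PD-L1 against PBS had 58 of 3213 genes at least 2-fold higher (1.81%) and 39 lower (1.21%). The combination had 199 of 3402 higher (5.85%) and 32 lower (0.941%) than PBS, and 115 of 3271 higher (3.52%) and 8 lower (0.245%) than anti-PD-L1. Without the 7 Col1a1-high cells, which left 26, 21 and 14 cells, anti-PD-L1 had 71 of 3210 higher (2.21%) and 45 lower (1.4%) than PBS. The combination then had 97 of 3344 higher (2.9%) and 29 lower (0.867%) than PBS, and 52 of 3222 higher (1.61%) and 15 lower (0.466%) than anti-PD-L1. Since leaving the Col1a1-high cells out lowered the count for the combination from 199 to 97, the values below are for the other 63 unless stated. Single cells weighed on the counts over all 70 cells too: without the 1 cell of most UMIs in each library, anti-PD-L1 had 31 genes in place of 58 higher than PBS, and the combination 176 in place of 115 higher than anti-PD-L1. When cells with at least 5 Ptprc UMIs (Ptprc-positive below) were left out beside the Col1a1-high ones, 25, 20 and 12 cells remained. Anti-PD-L1 then had 40 genes higher (1.25%) and 36 lower (1.13%) than PBS, and the combination 81 higher (2.44%) and 22 lower (0.663%). Against anti-PD-L1 the combination had 66 higher (2.04%) and 17 lower (0.525%).

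Interferon genes were higher in tumour cells of both antibody-treated pools than in PBS. Of the type I list, 7 of 12 genes compared were at least 2-fold higher in anti-PD-L1 and 7 of 13 in the combination, with medians of 1.03 and 1.12; none was 2-fold lower, and over all genes 2.21% and 2.9% were 2-fold higher. Of the interferon gamma list, 8 of 11 and 7 of 11 were higher, with medians of 1.32 and 1.30. Over all 70 cells the type I counts were 4 of 12 and 12 of 15 (medians 0.89 and 1.49) and the interferon gamma counts 5 of 10 and 7 of 11 (medians 1.00 and 1.47). Over all genes the medians lay at -0.05 with all 70 cells. Other kept cells of the same pools had medians of 0.20 and 0.44 for the type I genes and 0.46 and 0.18 for the interferon gamma genes, nearer to 0 than those of the tumour cells. The combination against anti-PD-L1 had 1 of 13 type I genes higher and a median of 0.24; with all 70 cells it was 4 of 15 and 0.61.

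Markers of other cells moved with these lists. Leukocyte markers summed to 233 CPM with PBS, 611 with the antibody and 539 with both, and monocyte and macrophage markers to 509, 1030.4 and 761. Of the leukocyte markers, 3 of 4 compared were at least 2-fold above PBS with the antibody (median 1.11) and 1 of 3 with both (median 0.91). Of the monocyte and macrophage markers it was 3 of 5 in each (medians 1.63 and 1.10), with 1 lower in anti-PD-L1. When the Ptprc-positive cells were also left out, 0 of 2 leukocyte markers in either comparison, and 0 of 4 and 0 of 5 monocyte and macrophage markers, were 2-fold higher. Of the 4 in anti-PD-L1, 2 were 2-fold lower (median -0.91). Ptprc is itself a leukocyte marker, so the choice of cells bears on these marker counts. In the remaining cells the type I list had 5 of 10 and 6 of 13 genes higher than PBS (medians 1.00 and 0.93), beside 1.25% and 2.44% of all genes. The interferon gamma list had 7 of 10 and 7 of 11 (medians 1.35 and 1.38).

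Isg15, a ubiquitin-like antiviral protein, was at 37.3 CPM with PBS, 138 with the antibody and 134 with both. Per cell (lowest, median, highest) it was 0, 8.65 and 234 in PBS cells, 0, 103 and 438 in antibody-treated cells and 0, 66.3 and 468 in cells given both. The ranges overlapped from 0 upward, but the PBS median was the lowest. It was 3.69-fold (95% interval 2.91 to 4.70) higher in anti-PD-L1 than in PBS, 3.58-fold (95% interval 2.80 to 4.60) higher in the combination, and the combination over anti-PD-L1 was 0.971-fold (95% interval 0.799 to 1.18). Bst2 was at 189 CPM with PBS, 518 with the antibody and 677 with both, 2.74-fold (95% interval 2.45 to 3.06) and 3.58-fold (95% interval 3.22 to 4.00) above PBS. Irf7, the factor that amplifies type I responses, was at 15.3 CPM with PBS, 52.0 with the antibody and 80.6 with both. In the antibody pool 60.4% of the Irf7 UMIs came from 1 cell with 18 Ptprc UMIs, and without the Ptprc-positive cells the Irf7 levels were 14.1, 23.5 and 51.0 CPM. Pooled over all 70 cells, Isg15 was at 46.4, 146 and 264 CPM, Bst2 at 222, 515 and 775 and Irf7 at 19.7, 56.8 and 175. Other kept cells held 199.6, 297 and 385 CPM of Isg15 in these 3 pools, with PBS the lowest there too and the combination the highest.

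Gbp2, an interferon gamma-induced GTPase, differed more. It was at 93.0 CPM with PBS, 556 with the antibody and 351 with both, with per-cell values of 0, 45.5 and 371 in PBS cells, 16.5, 354 and 2505 in antibody-treated cells and 21.1, 220.3 and 1015 in cells given both. The ranges overlapped, with the highest cells in anti-PD-L1. The excess over PBS was 5.98-fold (95% interval 5.20 to 6.91) in anti-PD-L1 and 3.77-fold (95% interval 3.23 to 4.41) in the combination. Other kept cells held 1136, 1546 and 740.0 CPM, so there the combination was below PBS while in tumour cells it was above. Cxcl10, the chemokine that draws activated T cells, was at 9.33 CPM with PBS, 163 with the antibody and 81.3 with both, 17.5-fold (95% interval 11.6 to 27.5) above PBS in anti-PD-L1 on 25 UMIs in PBS. Cd274 itself was at 7.84 CPM with PBS, 50.3 with the antibody and 19.97 with both, 6.41-fold (95% interval 3.95 to 10.9) and 2.55-fold (95% interval 1.40 to 4.70) above PBS on 21 UMIs in PBS. Its per-cell medians were 5.42, 16.5 and 14.8 CPM. The cell with 18 Ptprc UMIs held 44.3% of the Cd274 and 40.2% of the Cxcl10 UMIs of the antibody pool, and without the Ptprc-positive cells the Cd274 levels were 8.04, 31.96 and 14.7 CPM and those of Cxcl10 8.04, 112 and 93.3. Over all 70 cells Gbp2 was at 132, 557 and 438 CPM, Cxcl10 at 15.7, 159 and 103 and Cd274 at 10.2, 49.0 and 22.7.

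MHC class I genes followed the same direction. In anti-PD-L1 4 of 16 compared genes were at least 2-fold above PBS (median 0.79), in the combination 5 of 16 (median 0.88), and none was 2-fold lower. H2-K1 per cell was 0, 290.4 and 798 CPM in PBS cells, 18.1, 508 and 2372 in antibody-treated cells and 211, 632 and 1495 in cells given both; pooled it was 2.06-fold (95% interval 1.89 to 2.25) and 2.36-fold (95% interval 2.17 to 2.58) above PBS. B2m per cell was 325, 712 and 1609.8 CPM in PBS cells, 267, 1248 and 4626 in antibody-treated cells and 864, 1623 and 2598 in cells given both, and pooled 1.88-fold (95% interval 1.77 to 2.00) and 2.47-fold (95% interval 2.33 to 2.62) above PBS. The cells of the 3 pools overlapped for both genes. The 7 Col1a1-high cells held 4837 CPM of H2-K1 against 565 in the other 63, and with them the class I counts were 2 of 17 for anti-PD-L1 and 12 of 19 for the combination (medians 0.74 and 1.31). Pooled over all 70 cells, H2-K1 was at 405, 789 and 1733.5 CPM and B2m at 765, 1467 and 2054. Against anti-PD-L1 the combination had 0 of 16 class I genes 2-fold higher without the Col1a1-high cells and 3 of 19 with them. When the Ptprc-positive cells were left out too, the counts against PBS were 2 of 16 for anti-PD-L1 and 5 of 16 for the combination.

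The pooled level of Cd74 in PBS came mostly from 1 cell. This MHC class II chaperone was at 317 CPM with PBS, 109 with the antibody and 39.3 with both, but 89.1% of the PBS UMIs came from 1 cell that also held 13 Ptprc UMIs. The per-cell medians were 37.1, 32.9 and 37.2 CPM. Without the Ptprc-positive and Col1a1-high cells Cd74 was at 37.4 CPM with PBS and 38.9 with both, and at 110.2 with the antibody, where 78.1% of its UMIs came from 1 cell. Of the MHC class II list, 4 of 5 genes were at least 2-fold below PBS in the combination (median -1.86) with that PBS cell, and over all 70 cells it was 0 of 5 (median -0.22), with 1 higher. Without the Ptprc-positive and Col1a1-high cells 1 gene could still be compared in the combination, at a log2 ratio of 0.38, and 4 of 5 were higher in anti-PD-L1 (median 1.34). Near-empty barcodes held 2141 CPM of Cd74 in PBS and 1649 in the combination, above the pooled level of the tumour cells, and the part of free RNA was not tested.

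**Figure D4:**
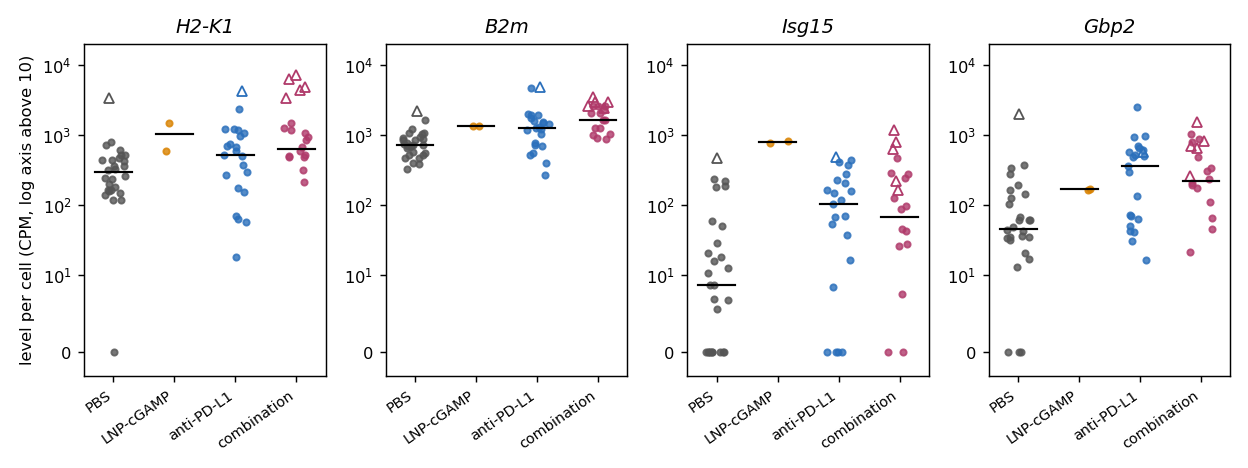
Level per cell (CPM, symmetric log axis) of H2-K1, B2m, Isg15 and Gbp2 in each tumour cell, by library. Circles are the 63 cells with under 10 Col1a1 UMIs, triangles the 7 Col1a1-high cells, and each bar is the median of the circles; the PBS medians are the lowest for all 4 genes, and the cells of the pools overlap.

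LNP-cGAMP alone left 2 tumour cells to describe, of 6060 and 125397 UMIs. Their UMIs of the type I interferon list came to 31.4 and 41.6 per 10000. The 26 PBS cells with little Col1a1 had 1.08, 5.95 and 21.1 per 10000 (lowest, median, highest), so both LNP-cGAMP cells lay above all of them. In anti-PD-L1 the values were 2.09, 14.6 and 38.01 and in the combination 4.45, 18.2 and 40.3, where 1 and 4 cells reached the lower LNP-cGAMP cell. In the same order of cells, Isg15 was at 825 CPM (5 UMIs) and 774 CPM (97 UMIs), above each of the other 61 cells with little Col1a1. Gbp2 was at 165 CPM (1 UMI) and 167 CPM (21 UMIs), within the range of the PBS cells, and Cd274 had 1 UMI in the 2 cells. The values of the smaller cell thus rest on very few UMIs. Among the 7 Col1a1-high cells, the list reached 63.7 per 10000 in the 1 PBS cell, 36.8 in the 1 of anti-PD-L1 and 32.9 to 96.7 in the 5 of the combination.

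Some mitotic genes were lower in tumour cells of the anti-PD-L1 pool. Of the G2 and M list, 9 of 23 genes were at least 2-fold below PBS in anti-PD-L1 (median -0.87), where 1.4% of all genes were lower. In the combination it was 1 of 23 (median -0.71), beside 0.867% of all genes. With all 70 cells the counts were 9 of 23 and 3 of 23 (medians -0.88 and -0.87), and without the Ptprc-positive and Col1a1-high cells 2 of 23 and 0 of 23 (medians -0.72 and -0.45), beside 1.13% and 0.663% of all genes. Cenpf was at 257 CPM with PBS, 64.5 with the antibody and 119 with both and Mki67, the proliferation antigen, at 116 CPM with PBS, 61.1 with the antibody and 65.4 with both, while Top2a, which untangles replicated DNA, was level at 168 CPM with PBS, 169 with the antibody and 174 with both. Over the full 70 cells Cenpf was at 251, 63.0 and 94.6 CPM, Mki67 at 114, 59.6 and 55.1 and Top2a at 164, 165 and 157. Thinned to 5000 UMIs, the 63 cells held a median of 22 list UMIs in PBS and 12 in each of the antibody-treated pools, and at least 5 in 76.9%, 76.2% and 64.3% of cells. Fewer list UMIs per cell were found in the antibody-treated pools, while the share of cells past 5 UMIs was close in PBS and anti-PD-L1. The S phase list had medians of 0.08 and -0.20 (0.08 and -0.22 with all 70 cells) and no gene 2-fold apart. In the other kept cells the G2 and M medians were 0.01 and 0.11.

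Among secreted factors, Areg was higher in the combination and the pooled level of Spp1 lower in both antibody-treated pools. Areg was at 183 CPM with PBS, 292 with the antibody and 712 with both, with per-cell medians of 105, 119.9 and 413, and 3.89-fold (95% interval 3.49 to 4.34) higher in the combination than in PBS. The highest single cells were at 1032, 1329.7 and 3959 CPM. Spp1 was at 2177 CPM with PBS, 749 with the antibody and 1254 with both, with per-cell medians of 1060.2, 449 and 602. In PBS 29.4% of its UMIs came from 1 cell. When the Ptprc-positive cells were also left out, Spp1 was at 2243, 852 and 1503 CPM. The per-cell medians were then 952, 515 and 1175, with the combination above PBS. Of the whole list of chemokines, cytokines and effusion factors, 7 of 17 compared were at least 2-fold above PBS in the combination and 2 of 17 in anti-PD-L1, with medians of 0.78 and 0.32. Over the full 70 it was 7 of 17 and 2 of 18, with medians of 0.93 and 0.33.

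The genes furthest apart between libraries were of several kinds. Among genes with at least 200 CPM in the higher library and UMIs in 50% or more of its tumour cells, the highest ratios after Gbp2 in anti-PD-L1 against PBS were those of Hmox1 (444 against 94.8 CPM), Arg1 (286 against 63.9), Ccl6 (1175 against 317) and the complement gene C1qb (298 against 82.5), genes that macrophages use strongly. With all 70 cells Saa3, an acute-phase protein, ranked first at 674 against 97.6 CPM. Single cells carried much of this: 97.1% of the Saa3 and 90.2% of the Arg1 UMIs in anti-PD-L1 came from 1 cell each. Without the 5 cells that held at least 5 Ptprc UMIs the log2 ratios of Arg1 and Ccl6 turned to -0.90 and -0.60. Among the lowest ratios were those of Col3a1 (109.7 against 508), Cenpf, Spp1 and the histone gene Hist1h2ap (74.3 against 224). Near-identical copies of histone genes make their counts uncertain.

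In the combination against PBS the highest ratios were those of Fos, an immediate-early factor (249 against 31.4 CPM), Upp1, uridine phosphorylase (293 against 41.1), Hilpda, a hypoxia-induced lipid droplet protein (377 against 73.9), AA467197 (382 against 90.7) and Areg. Fos was uneven, with 0, 12.9 and 2454 CPM per cell in the combination, whereas Hilpda had 0, 260.3 and 969.5. In the combination 89.8% of the Fos UMIs came from 1 cell, and the per-cell median in PBS was 8.26 CPM. Cd74, Col3a1, the interferon-induced membrane gene Ifitm1 (144 against 328), Cenpf and Dpysl3, a cytoskeletal protein (109.5 against 215), were among the lowest, Cd74 with the single PBS cell described above. With all 70 cells the top ranks were instead Lcn2, Saa3, Slpi, Ifi27l2a and C3. Lcn2, an iron-scavenging protein, was at 323 against 8.41 CPM with all cells, and its log2 ratio was -0.0719 without the Col1a1-high cells. Against anti-PD-L1, Fos (249 against 18.8), Hist1h2ap (492 against 74.3), Emb and Hilpda (377 against 101) were among the highest in the combination and Hmox1 (214 against 444), Fabp5, Tmem176b, Hspa9 and Park7 lowest. Hilpda was thus higher in the combination than in both other pools.

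**Figure D5:**
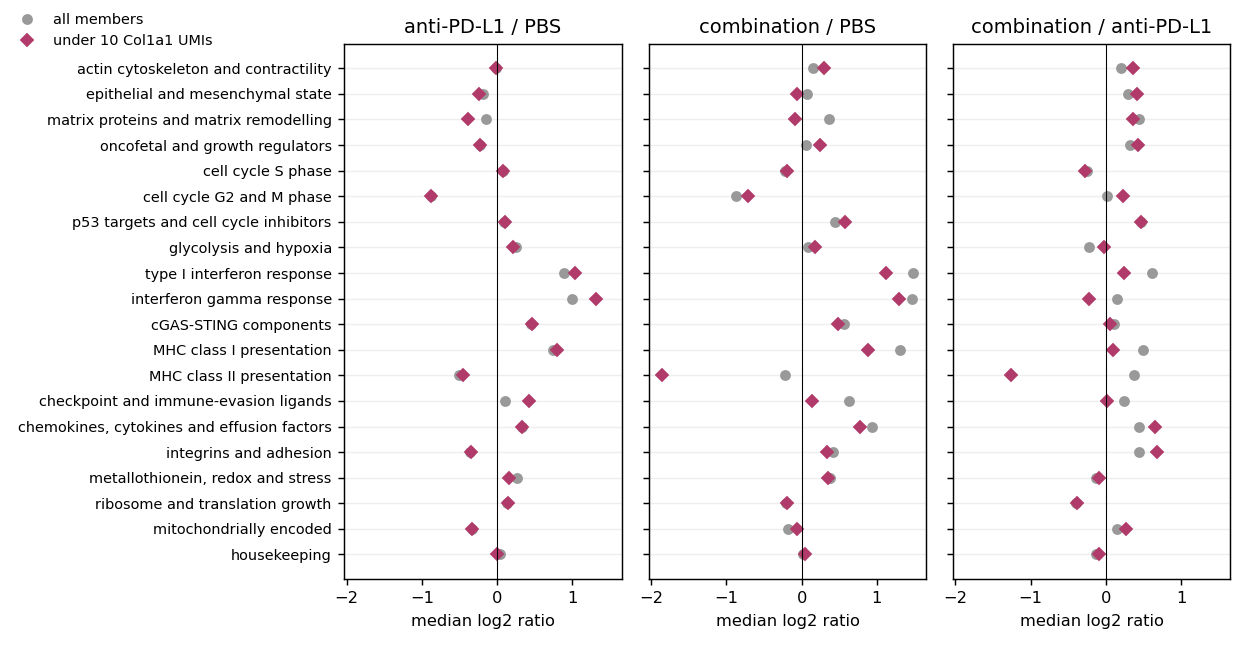
Median log2 ratio over the compared genes of each list other than the cell type markers, for anti-PD-L1 against PBS, the combination against PBS and the combination against anti-PD-L1, with grey circles for all tumour cells and diamonds for those with under 10 Col1a1 UMIs. The interferon and MHC class I medians are above 0 against PBS in both versions, the G2 and M median is below 0, and of the lists drawn the MHC class II median of the combination moves most with the 7 Col1a1-high cells.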

How the data were processed

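Pleural fluid cells of 4 treatment groups were profiled with 10x Genomics Chromium 3' chemistry; the labels name version 2 of the reagent kit in the protocol and version 3 in the design text. The authors deposited UMI counts per gene and barcode, whole numbers without normalization, on mm10 per the submitters' processing notes; the file headers name Cell Ranger 3.0.2. The matrices still hold near-empty barcodes and 27998 genes, and no value column was left unmapped (0). From these counts, UMIs were summed over the cells of a group and scaled to CPM with Python 3.11.15, numpy 2.4.6, scipy 1.17.1 and pandas 2.3.3. Log2 ratios used a pseudocount of 10 CPM, and a gene entered with at least 20 UMIs and 50 CPM on either side. A difference was called at 4-fold between cell groups and at 2-fold between libraries with at least 10 tumour cells. Shares carry exact Clopper-Pearson intervals and folds exact conditional binomial intervals, both at 95% and covering counting error only; a count of 0 allows up to 3 counts. Gene positions came from the GRCm38 annotation, and figures were drawn with matplotlib 3.10.9. The 4-fold calls were tried on summed profiles simulated with known changes and counting noise only. That trial could not check the spread between cells or the 2-fold calls between libraries.

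The cells, gene lists and markers were chosen with earlier results of these data known. Against other kept cells, the text names the 20 highest and 10 lowest ratios among genes at least 4-fold apart in the same direction in each library with at least 10 tumour cells and holding 100 CPM in the higher group, leaving out Cald1, Hmga2 and Lyz2. Between libraries it names the 5 highest and 5 lowest with at least 200 CPM in the higher library and UMIs in 50% or more of its tumour cells. From each list it names the 4 members with the most UMIs and called members, up to 6; other genes named were chosen after their values were seen. No doublet caller was run, so doublets remain. Alternatives covered the filters of the rule, the scaling, the pseudocount, the reference cells, thinning and left-out libraries or cells. The list genes Mx2 and Trac were not in the gene table. Some genes that these rules name are not reported here.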

Additional observations from a re-analysis of the deposited data

How the results depend on the processing

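The tumour cell count of 70 moved to 33 at a mitochondrial limit of 5% and to 106 with no Hmga2 minimum. Leaving out each library gave 226 to 249 genes higher and 415 to 485 lower than in other kept cells (224 and 441 in all). With Cald1-positive cells without Hmga2 as the reference, 61 genes were higher; with T cells alone, 270 were lower. Between libraries, with no filter on low counts the counts were 109 higher and 64 lower for anti-PD-L1 against PBS, 399 and 53 for the combination against PBS, and 248 and 36 for the combination against anti-PD-L1. A pseudocount of 1 CPM gave 63 (combination below PBS) and 16 (combination below anti-PD-L1). Weighting cells equally gave 38 for anti-PD-L1 above PBS and 18 for the combination below anti-PD-L1. Without the cell of most UMIs in each library the counts were 31 for anti-PD-L1 above PBS, 20 for the combination below PBS and 176 for it above anti-PD-L1. The following were chosen after seeing the data. Without the Col1a1-high cells the combination had 97 above PBS, 52 above and 15 below anti-PD-L1. Without cells of at least 5 Ptprc UMIs, anti-PD-L1 had 36 above and the combination 18 below PBS. The combination had 13 below anti-PD-L1 both without cells under 1% mitochondrial UMIs and after subtracting free RNA. Without the Col1a1-high cells and those of at least 5 Ptprc UMIs together, the combination had 81 above PBS, 66 above and 17 below anti-PD-L1. The cause of these moves was not tested.

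Log2 ratios changed sign as follows. Against Cald1-positive cells without Hmga2: Serpinh1 -1.01, Krt8 -0.93, Tm4sf1 -1.09, Col3a1 -1.68, Krt18 -1.41, Prkcdbp -0.83, Ms4a6c 0.56, Ms4a6d 0.0103 and Ms4a6b 0.0353, with list medians of -1.04 (matrix) and -0.19 (integrins and adhesion). Against T cells alone: list medians of -0.66 (S phase) and -0.44 (G2 and M phase). Without the cell of most UMIs in each library: Arg1 -0.87 and Ccl6 -0.67 (anti-PD-L1 over PBS) and Hmox1 0.20 (combination over anti-PD-L1). Without cells of at least 5 Ptprc UMIs: Arg1 -0.90, Ccl6 -0.60 and Cd74 0.53 (anti-PD-L1 over PBS) and Arg1 -0.0671 (combination over PBS). Without the Col1a1-high cells: C3 0.0902 (anti-PD-L1 over PBS), Lcn2 -0.0719 (combination over PBS), and Isg15 -0.0401, Psmb9 -0.16, Oasl2 -0.20 and Cd74 -1.27 (combination over anti-PD-L1). Without both kinds of cell together: C3 0.16, Arg1 -0.89, Ccl6 -0.61 and Cd74 1.34 (anti-PD-L1 over PBS), Lcn2 -0.0882 and Arg1 -0.0989 (combination over PBS), and Isg15 -0.16, Psmb9 -0.19, Oasl2 -0.34 and Cd74 -1.30 (combination over anti-PD-L1).

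In every alternative run, the medians against PBS kept their sign for the type I interferon (0.68 to 1.03 in anti-PD-L1, 0.90 to 1.75 in the combination), interferon gamma, MHC class I and G2 and M phase lists. No paired analysis was possible because each treatment had 1 library. With 70 cells in 4 pools, a difference between treatments cannot be told apart from one between pools of mice, and depth limits genes under about 50 CPM.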

Other observations

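Several genes stood at least 4-fold above both the other kept cells and the Cald1-positive cells without Hmga2, and were chosen after their values were seen. Nes, the intermediate filament nestin of progenitor cells, had UMIs in 54 of 70 tumour cells and 16 of 9476 others, at 103 against 0.0692 and 3.98 CPM in tumour, other and Cald1-positive cells without Hmga2. Dkk2, a secreted Wnt modulator, was in 54 cells at 111 against 0.0801 and 2.49 CPM. Cda, cytidine deaminase, was in 64 at 128 against 0.146 and 6.46 and Dusp9, a phosphatase of MAP kinases, in 59 at 101 against 0.248 and 1.99. Fosl1, an AP-1 subunit, was in 59 at 199 against 1.43 and 19.4 and Phlda1 in 62 at 306 against 16.7 and 20.4 CPM. Il1rl1, which encodes the receptor of the alarmin IL-33, was in 45 tumour cells at 157 against 0.422 and 16.4 CPM, beside Il33 itself in 45.

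Klra4 (chr6:130043731-130067271, GRCm38, minus strand) encodes a receptor of NK cells of the Ly49 family. It had UMIs in 49 of 70 tumour cells and 146 of 9476 others, at 135 against 7.28 and 0.497 CPM, while the NK cell markers Ncr1, Klrb1c and Klre1 were at 0 in tumour cells. It was present in all 4 libraries, at 87.5 CPM with anti-PD-L1 and between 149 and 156 in the other libraries. Ly49 genes are close copies of one another, so the reads may belong to another member.

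By chromosome, the median log2 ratio of tumour cells over Cald1-positive cells without Hmga2 was 0.22 over 3265 genes. It was 0.51 on chromosome 10, 0.45 on chromosome 8 and 0.43 on chromosomes 1 and 17, and -0.06 on chromosome 7 and -0.03 on chromosome 9. In PBS, anti-PD-L1 and the combination the chromosome 10 medians were 0.58, 0.44 and 0.39 and the chromosome 7 medians -0.11, -0.16 and -0.01, and the 3 share the reference cells.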
